A study of Mus musculus with 20 samples.

Results

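The Hox genes encode homeodomain transcription factors and lie in 4 clusters in the mouse, Hoxa on chromosome 6, Hoxb on chromosome 11, Hoxc on chromosome 15 and Hoxd on chromosome 2. They were taken here as every gene whose symbol is Hox followed by the cluster letter and a number. That gave 39 of the 53380 genes in the table, 11 in Hoxa, 10 in Hoxb, 9 in Hoxc and 9 in Hoxd, and the coordinates of all 39 were those of the mm10 (GRCm38) annotation. Their RNA was measured by bulk RNA-seq in 20 libraries of 5 populations sorted from the dorsal epidermis of mice described as 8-week-old. HFSCs (hair follicle stem cells, CD34+ and Sca1-, 4 libraries) were compared with basal keratinocytes of the interfollicular epidermis that were Thy1hi (Thy1+ and Sca1+, 4 libraries) or Thy1- (Thy1- and Sca1+, 4 libraries). DETCs (dendritic epidermal T cells, Thy1+ and Sca1-, 5 libraries) and Thy1+ YFP+ cells (3 libraries) completed the set. The YFP+ cells were labelled in mice in which an inducible Cre recombinase driven by a Thy1 transgene turns on a fluorescent reporter. The study also sorted on the integrin Itga6, positive in all populations but DETCs, whose Sca1 it gives as low.

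The sample labels give the genotype Thy1.2CreERT2-Rosa26-EYFP and no treatment for every sample, with ages that rise by a week per sample from 8 to 27 weeks, while the methods describe wild-type mice for all populations but the YFP+ cells. The label of the YFP+ cells says ScaI- where their titles and the methods give Sca1+. The DETC libraries called a and b here have column numbers that match no sample title. They were assigned to DETCs by the rest of the column name and have no replicate number. The series description calls the samples biological replicates run in 2 batches, but which library belongs to which batch is not given, so batch and population cannot be told apart. Mice were pooled in numbers that are not clear, so the p-values measure the spread between libraries.

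Hox genes are known for giving cells their position along the body axis. Within a cluster their order on the chromosome runs with the order in which they act from head to tail, and genes with the same number in different clusters, called paralogues, derive from 1 ancestral gene. Low numbers lie at the end used towards the head and numbers 10 to 13 at the end used in the lumbar region, tail and outer limb. Skin keeps a Hox pattern in adult life, and Hoxc13 is known apart from this as a gene of the hair follicle that acts in hair shaft formation at all body sites.

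Sequences are given where a result turns on the genes beside them. The first set is the 250 bases upstream of the RefSeq starts (GRCm38.p6) of Hoxd8 and Hoxd4, a pair of Hoxd genes that were higher together in HFSCs. Capitals mark TTTATG, a motif of the kind bound by the caudal-type (Cdx) factors, searched on both strands (the reverse complement is CATAAA).
Hoxd8 (chr2:74704365-74704614, plus strand): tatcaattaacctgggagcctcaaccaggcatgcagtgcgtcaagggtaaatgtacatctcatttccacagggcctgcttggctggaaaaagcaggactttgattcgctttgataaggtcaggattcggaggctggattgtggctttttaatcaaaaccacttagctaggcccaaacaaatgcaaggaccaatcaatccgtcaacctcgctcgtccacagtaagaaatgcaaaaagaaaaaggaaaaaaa
Hoxd4 (chr2:74721728-74721977, plus strand): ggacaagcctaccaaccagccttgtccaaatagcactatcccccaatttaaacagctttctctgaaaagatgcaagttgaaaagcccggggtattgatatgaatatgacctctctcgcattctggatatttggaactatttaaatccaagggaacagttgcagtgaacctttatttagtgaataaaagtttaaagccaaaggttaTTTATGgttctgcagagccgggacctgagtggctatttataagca
The Hoxd4 window held 1 match and the Hoxd8 window held none, and no annotated exon lay in either window. The Hoxd4 gene as counted spans chr2:74711929-74729160, so its window lies inside that span and not upstream of it. TTTATG occurred in 5 of the 24 Hox windows in the reference table (22 genes) and in 10.8% of all 32851 windows of that length. TGATNNAT, the composite motif of a Hox protein with a Pbx cofactor, occurred in 4 Hox windows and in 7.68% of all. TAATTA, a homeodomain motif, occurred in 2 Hox windows, both of Hoxd11, and in 4.84% of all. Neither of these motifs occurred in the Hoxd8 or Hoxd4 window. The second set is the mature microRNAs of the miR-10 and miR-196 families, whose hairpin genes lie inside the clusters, from RefSeq, with the seed (bases 2 to 8) in capitals.
miR-10a-5p: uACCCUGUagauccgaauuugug
miR-10b-5p: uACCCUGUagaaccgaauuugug
miR-196a-5p: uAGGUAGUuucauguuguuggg
miR-196b-5p: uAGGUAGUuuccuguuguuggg
The microRNAs fell into 2 seed groups, ACCCUGU for miR-10a and miR-10b and AGGUAGU for miR-196a and miR-196b. These libraries give reads on the hairpin genes and not mature microRNAs. Mir196a-1, between Hoxb9 and Hoxb13, had 2 to 13 reads in HFSCs, 0 to 6 in Thy1hi cells, 1 to 5 in Thy1- cells, 2 to 6 in YFP+ cells and 0 to 2 in DETCs. Mir10a and Mir10b had at most 2 reads in any library, Mir196b and Mir196a-2 had none, Mir615 in Hoxc had 1 read in 1 library, and no hairpin passed the filter for testing.

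Values are normalized counts, reads per gene divided by 1 size factor per library. The libraries held 7781257 to 12982393 reads on genes, of which 13.1 to 41.5% fell on the ribosomal RNA gene Rn45s. The sorted populations were checked against marker genes. The 7 hair follicle stem cell markers summed to 7049 to 10940 in HFSCs and to at most 3142 in any other library, and the 8 T cell markers to 20060 to 41780 in DETCs and to at most 454.4 elsewhere. HFSC replicate 4 stood apart, with the lowest sum of the 7 basal keratinocyte markers in its population (70960 against 149400 to 165000) and the lowest share of Rn45s. In DETCs the basal markers still summed to 11950 to 56960, against 184100 to 255600 in Thy1hi cells.

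A gene was tested if its value was at least 10 in at least 3 libraries, which 23 of the 39 Hox genes met, 8 in Hoxa, 8 in Hoxb, 5 in Hoxc and 2 in Hoxd. The 16 others were Hoxa10, Hoxa11, Hoxa13, Hoxb1, Hoxb13, Hoxc9, Hoxc10, Hoxc11, Hoxc12, Hoxd1, Hoxd3, Hoxd9, Hoxd10, Hoxd11, Hoxd12 and Hoxd13. Hoxc9 had 0 to 13 reads per library, and none of the other 15 had over 7 reads in any library. The skin sampled is dorsal, and of the 12 genes numbered 10 to 13, which act at the rear end of the axis, Hoxc13 alone was tested. Of the 27 genes numbered 1 to 9, 22 were tested. A library with 0 reads allows up to 3 reads by counting error alone, so a level of up to 3 reads could not be told from 0.

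**Figure D1:**
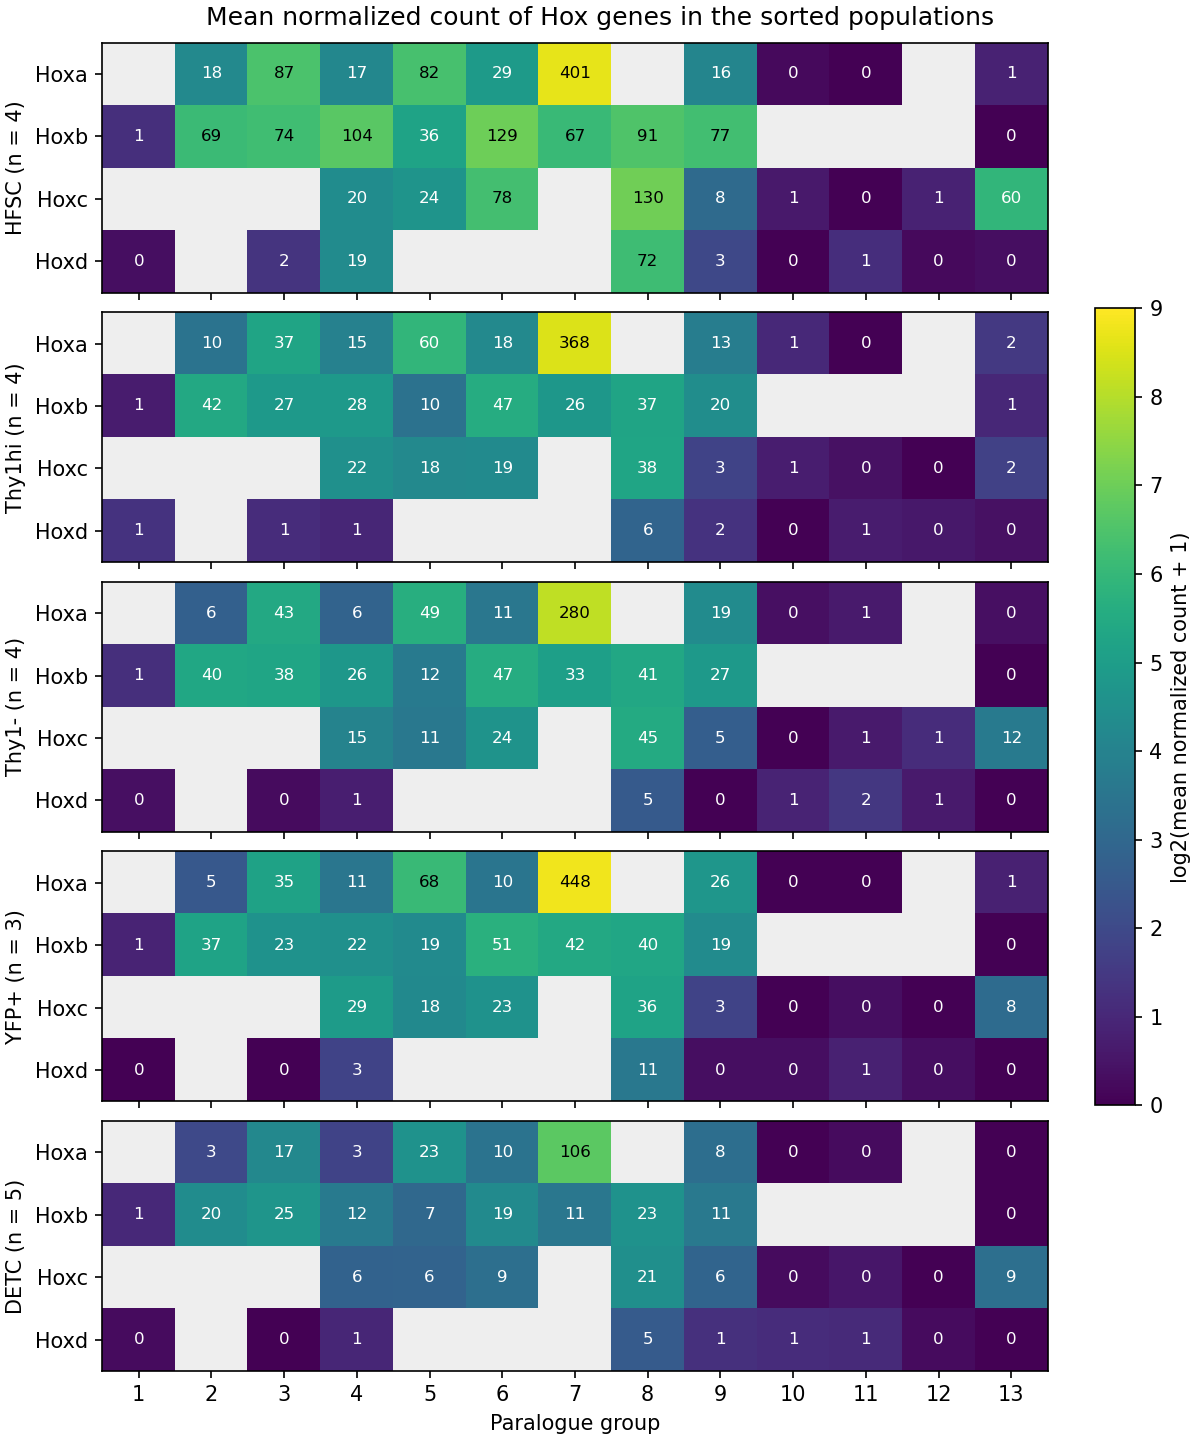
Mean normalized count of 38 Hox genes, with the clusters in rows and the paralogue groups 1 to 13 in columns, 1 panel per population (n is the number of libraries). The number in a cell is the mean and the colour its log2 after adding 1, and grey cells have no gene or one not shown. Hoxa7 has the highest mean in every panel, from 106 in DETCs to 448 in YFP+ cells, and Hoxc13, Hoxd4 and Hoxd8 stand out in the HFSC panel.

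Counted per kb of exon, so that genes can be set against each other, Hoxa7 had the highest mean level of all Hox genes in each of the 5 populations. Hoxa7 is a gene of the thoracic part of the axis. Its level was 140 ± 17.3 per kb (SD, n = 4) in HFSCs, 128 ± 30.1 (n = 4) in Thy1hi cells, 97.5 ± 35.5 (n = 4) in Thy1- cells, 156 ± 47.5 (n = 3) in YFP+ cells and 36.8 ± 17.1 (n = 5) in DETCs. These levels overlapped among the 4 keratinocyte populations, and DETCs lay below all of them. Next in order by mean level per kb came Hoxb6 (65.7 ± 21.0) and Hoxc8 (46.1 ± 9.13) in HFSCs, whose libraries overlapped, and Hoxa5 in Thy1hi (31.9 ± 11.7), Thy1- (25.9 ± 7.41) and YFP+ cells (36.4 ± 16.1). The libraries of Hoxa5 overlapped with those of Hoxb6 in Thy1hi, Thy1- and YFP+ cells alike.

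The clusters contributed unequally, and the Hoxa share was lower in every HFSC library than in any other keratinocyte library. Hoxa genes made up 38.4% ± 4.19 of the summed Hox level per kb in HFSCs, and 59.7% ± 4.71 in Thy1hi, 50.4% ± 4.18 in Thy1- and 59.5% ± 5.72 in YFP+ cells. In DETCs they made up 46.3% ± 8.83, which overlapped with HFSCs. Hoxb genes made up 38.4% ± 4.44 in HFSCs and 27.7% ± 3.80 in Thy1hi cells. The Hoxd share was 5.41% ± 1.97 in HFSCs, with a lowest library of 3.64%, and at most 2.71% in any Thy1hi, Thy1- or YFP+ library, but 1.47 to 3.96% in DETCs, which overlapped with HFSCs. In normalized counts, all Hox genes together summed to 1485 to 2074 in HFSCs, 710 to 1064 in Thy1hi, 728.9 to 1027 in Thy1-, 841.4 to 1251 in YFP+ cells and 155 to 472.7 in DETCs. HFSCs thus had the highest sums and DETCs the lowest, with no overlap with the other 3 populations. These shares and sums are given as descriptions with no test, and in bulk samples more cells of a kind and more RNA per cell cannot be told apart.

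**Figure D2:**
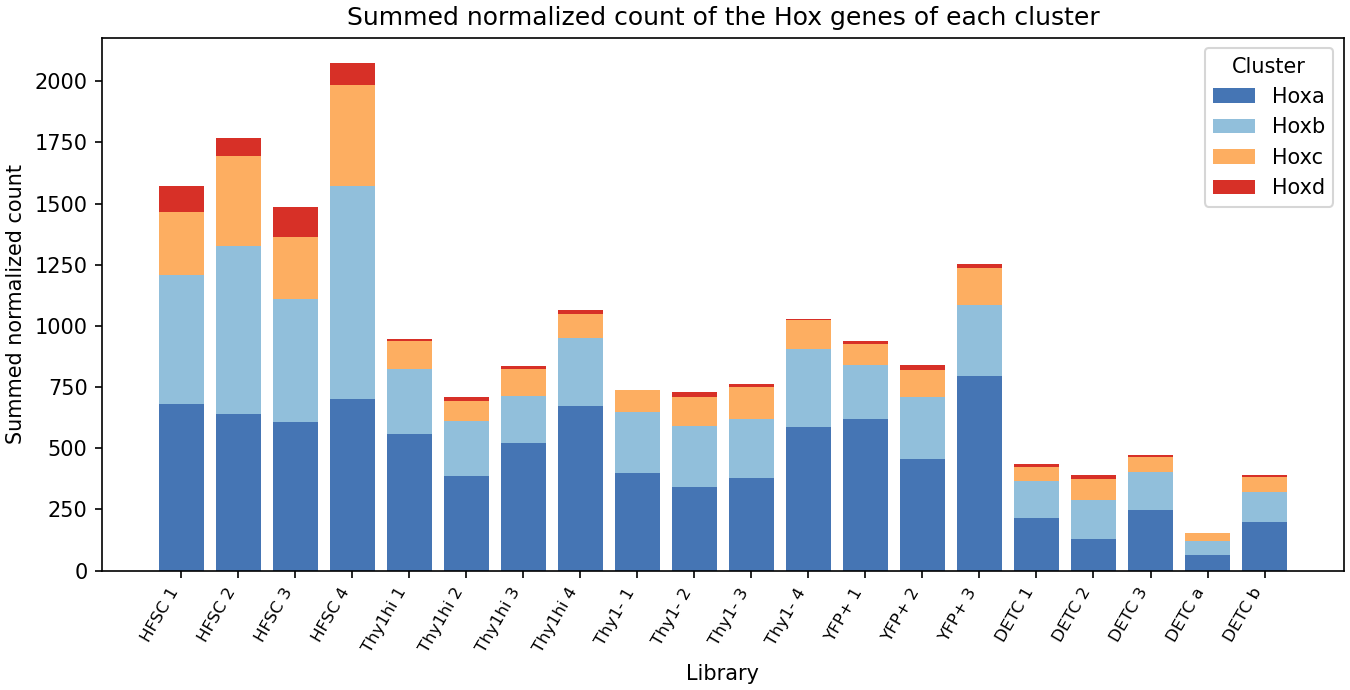
Summed normalized count of the Hox genes of each cluster (stacked colours, vertical axis from 0) in each of the 20 libraries. The HFSC libraries reach 1485 to 2074, the other keratinocyte libraries 710 to 1251, and the DETC libraries 155 to 472.7, with DETC a the lowest.

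The first question was whether Hox genes differ between the stem cells of the follicle and the Thy1hi cells of the surface epidermis. Of the 23 tested genes, 11 were higher in HFSCs and none was lower (limma on log2(value + 1), adjusted p under 0.05). Over all genes tested, 6.86% were higher in HFSCs. The median log2 difference of the 23 was 1.21, against -0.02 over all genes. Hoxd4 and Hoxa2 reached the filter only through HFSC libraries, so Hoxd4 had to differ, and without these genes 10 of 21 were called and the median was 1.21. By cluster, 2 of 2 Hoxd genes, 3 of 5 Hoxc genes, 5 of 8 Hoxb genes and 1 of 8 Hoxa genes were higher.

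Hoxd8, a gene from the middle of its cluster, had normalized counts of 86.6, 59.7, 93.0 and 50.5 in the HFSC libraries, against 5.52, 2.63, 4.06 and 13.6 in Thy1hi cells. The lowest HFSC library was thus above the highest Thy1hi library. The log2 difference was 3.46 ± 0.59 (SE, adjusted p = 0.000404, exact permutation p = 0.0286, the smallest that 4 against 4 libraries allow). Hoxd4 followed it at lower counts, with 18.5, 5.43, 22.5 and 30.8 in HFSCs and 0, 1.32, 2.44 and 0 in Thy1hi cells. Its log2 difference was 3.38 ± 0.70 (adjusted p = 0.00273), which depends on the added count at levels near 0 and ran from 1.34 to 5.23 over the alternatives. The annotation gives Hoxd4 and Hoxd3 overlapping transcripts, and 52.3% of the exon bases of Hoxd4 are shared with other genes on the same strand. Hoxd3 itself had at most 4 reads in any library, but 62.3% of its exon bases are shared on the same strand. How reads on shared bases were assigned is not stated in the methods.

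Hoxc13 had 30.0, 68.4, 52.4 and 89.0 in HFSCs and 0, 0, 6.50 and 2.91 in Thy1hi cells. This hair gene had the largest log2 difference of the 23 in this fit, 4.61 ± 0.77 (adjusted p = 0.000339, n = 4 libraries each, exact permutation p = 0.0286). With Thy1hi libraries at 0 it depends on the added count, and it ran from 2.46 to 6.38 over the alternatives. None of its neighbours Hoxc9 to Hoxc12 reached the filter, so the only gene tested beyond Hoxc8 in this cluster was the outermost. Hoxc8, which acts in the trunk, had 124.7, 165.1, 102.6 and 129.6 in HFSCs and 47.5, 29.0, 35.8 and 39.8 in Thy1hi cells, a log2 difference of 1.75 ± 0.35 (adjusted p = 0.00209). Hoxc6 had 61.2, 70.6, 59.9 and 121.2 against 17.7, 15.8, 28.4 and 13.6, a difference of 1.99 ± 0.40 (adjusted p = 0.00214). Both sets of libraries were separate, with every HFSC library above every Thy1hi library. Hoxc4 and Hoxc5, the Hoxc genes nearest to the head end, had log2 differences of -0.17 and 0.45 and were not called.

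In Hoxb the called genes were spread over the cluster, from Hoxb3 to Hoxb9. Hoxb9 had 112.0, 68.4, 50.2 and 77.1 in HFSCs and 26.5, 11.8, 24.4 and 18.4 in Thy1hi cells, a log2 difference of 1.87 ± 0.37 (adjusted p = 0.0019). No library overlapped. Hoxb5, Hoxb6, Hoxb3 and Hoxb7 were higher by 1.74, 1.42, 1.38 and 1.21 on the log2 scale. Hoxb4 was high in HFSC replicate 4 (255.0) and lower in replicates 1 to 3 (43.9, 77.1 and 38.5), and its difference of 1.48 was not called (adjusted p = 0.0599). Hoxb8 (1.32, adjusted p = 0.155) and Hoxb2 (0.65, adjusted p = 0.238) were not called either, although their HFSC and Thy1hi libraries did not overlap. For Hoxb3, 52.9% of the exon bases are shared with genes on the opposite strand, and for Hoxb2 27.3%. The strand setting of the counting was not given, and the methods do not say how reads on shared bases were assigned. Reads there may thus be missing or come from either strand.

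In Hoxa, Hoxa3 alone was called. It had 78.5, 68.4, 71.6 and 129.6 in HFSCs against 33.12, 35.56, 34.95 and 45.6 in Thy1hi cells, which do not overlap, and a log2 difference of 1.16. The limit given for Hoxb3 holds here too, with 25.4% of the exon bases of Hoxa3 and 20.4% of those of Hoxa7 shared with the opposite strand. Hoxa7 had 461.7, 339.9, 402.0 and 401.5 against 406.3, 242.4, 382.9 and 438.5, overlapping libraries, with a difference of 0.15 ± 0.34 (adjusted p = 0.803), which turned to -0.034 without Thy1hi replicate 2. Paralogues can be set side by side. In group 4 the differences were 0.07 for Hoxa4, 1.48 for Hoxb4, -0.17 for Hoxc4 and 3.38 for Hoxd4, which passed the filter only through HFSCs, and in group 9 they were 0.30 for Hoxa9 and 1.87 for Hoxb9. Differences between paralogues were not tested.

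The call count ranged from 8 to 11 when each library was left out in turn, being 8 without HFSC replicate 4, Thy1hi replicate 2 or Thy1hi replicate 3. Hoxa3, Hoxb3, Hoxb9, Hoxc6, Hoxc8, Hoxc13, Hoxd4 and Hoxd8 were called under every alternative that gave them a value. Hoxb5 lost its call without HFSC replicates 1, 3 or 4 or Thy1hi replicates 1, 2 or 3, Hoxb6 without HFSC replicates 2 or 4 or Thy1hi replicates 1, 2 or 3, and Hoxb7 without HFSC replicates 3 or 4 or Thy1hi replicates 2, 3 or 4. Hoxb5 and Hoxb7 also lost their calls with no filter and with libraries scaled to the same total without Rn45s, and Hoxb7 with quantile normalization and in a fit of the 2 populations alone.

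**Figure D3:**
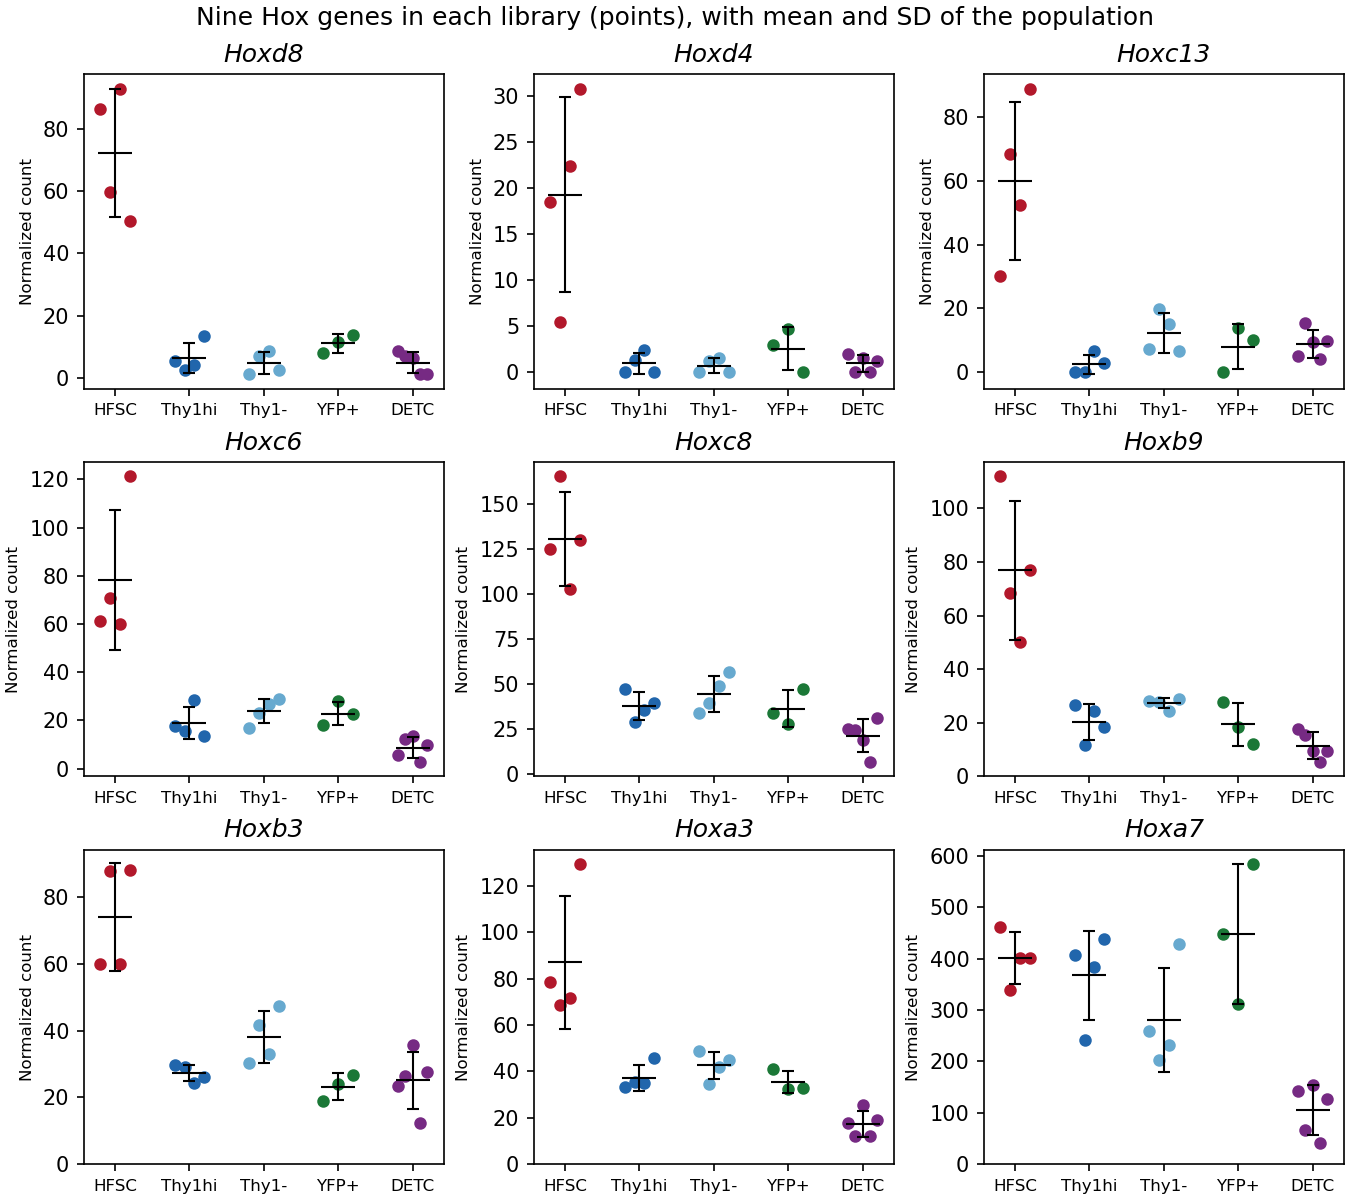
Normalized count of 9 Hox genes in each library (points), with the mean and SD of each population (bars). For Hoxd8, Hoxd4, Hoxc13, Hoxc6, Hoxc8, Hoxb9, Hoxb3 and Hoxa3 the HFSC libraries lie above all Thy1hi libraries, and for Hoxa7 the 4 keratinocyte populations overlap.

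Against the Thy1- cells, 7 of 23 Hox genes were higher in HFSCs and none was lower, where 3.52% of all genes tested were higher. The genes were Hoxa3, Hoxb6, Hoxb9, Hoxc6, Hoxc8, Hoxd4 and Hoxd8. All 7 are among the 11 above, and both comparisons use the same HFSC libraries. Without Hoxd4 and Hoxa2, 6 of 21 were called. The median difference of the 23 was 1.19, against -0.04 over all genes, and scaling the libraries to the same total without Rn45s moved the latter to -0.16 and left 5 calls. Hoxd8 had 1.22, 6.94, 8.68 and 2.46 in Thy1- cells, below every HFSC library, and a log2 difference of 3.85 ± 0.59 (adjusted p = 0.000395). Hoxd4 had 0, 1.16, 1.58 and 0, also below every HFSC library, and a difference of 3.51 ± 0.70 (adjusted p = 0.00473).

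Hoxc6 and Hoxc8 differed from Thy1- cells by 1.63 ± 0.40 (adjusted p = 0.0182) and 1.53 ± 0.35 (adjusted p = 0.012) on the log2 scale. Hoxb9 and Hoxb6 differed by 1.41 and 1.40 and Hoxa3 by 0.98. Hoxc13 had 7.30, 19.7, 15.0 and 6.56 in Thy1- cells, below every HFSC library, and its difference of 2.24 ± 0.77 was not called (adjusted p = 0.0861). Hoxb3 was not called either (0.93, adjusted p = 0.0643).

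Fewer calls were stable here. The count was 2 without Thy1- replicate 1, 3 without HFSC replicate 4, 4 without HFSC replicate 1, Thy1- replicate 2 or Thy1- replicate 3, and 8 without Thy1- replicate 4. Hoxd8 was called under every alternative, Hoxd4 under all but the pseudocount of 0.1, and Hoxc8 under all but leaving out Thy1- replicate 1.

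Markers of other cells also moved with HFSCs. Melanocyte markers were higher than in Thy1hi cells for 4 of the 5 tested of 7, where 6.86% of all genes tested were higher. They summed to 744 to 1034 in HFSCs, 115.9 to 203.7 in Thy1hi and 165.4 to 291.8 in Thy1- cells, with Mitf, at 452.9 to 762.3 in HFSCs, giving most of the sum. The called genes were Mitf, Dct, Tyrp1 and Pmel, with log2 differences of 1.81 to 2.93, Dct running from 65.8 to 197.7 in HFSCs and from 18.8 to 60.2 in Thy1hi cells. Tyr was not called (0.48). Against Thy1- cells 2 of the 5 were higher in HFSCs, where 3.52% of all genes tested were, with a median log2 difference of 0.77. Sox10 (5.43 to 8.55 in HFSCs) and Mlana (0 to 10.9) were not tested. Of the fibroblast markers 0 of 7 tested were called, and their sums were 320.9 to 1678 in HFSCs and 331.7 to 2135 in Thy1hi cells. Of the Langerhans cell markers 0 of 6 and of the endothelial markers 0 of 4 tested were called. HFSC replicate 4, which had the highest Hox sum (2074), had the lowest fibroblast (320.9) and Langerhans cell (421.8) sums of its population. The part of melanocytes in the Hox differences was not tested.

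**Figure D4:**
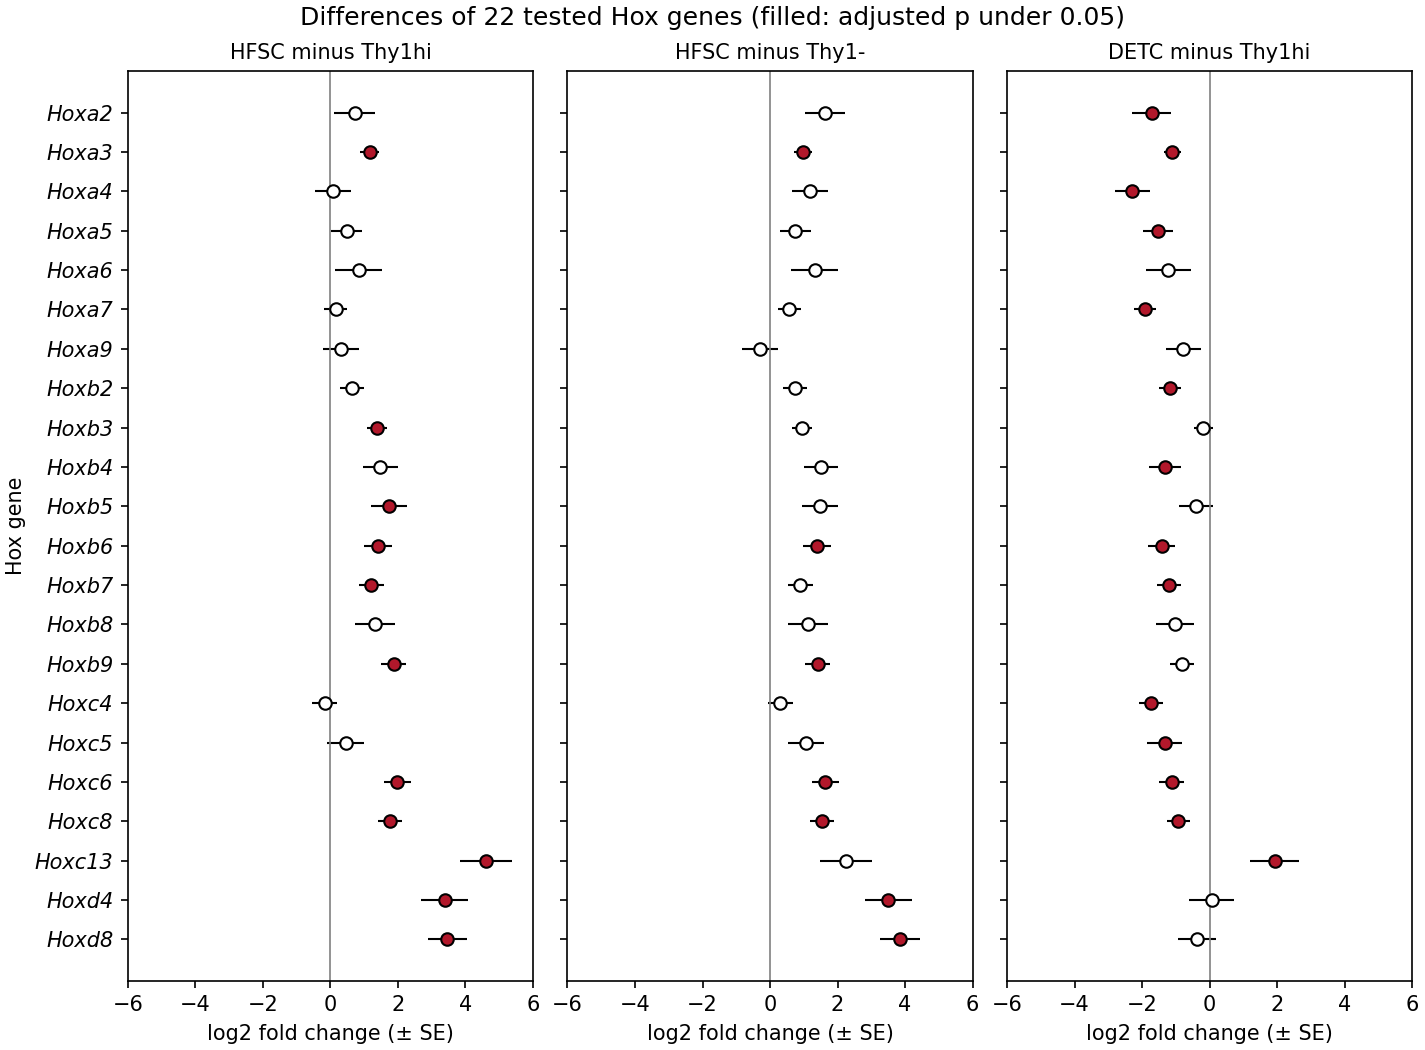
Log2 fold change (points, on log2 of the normalized count plus 1) with its standard error (bars) for 22 tested Hox genes in 3 comparisons, filled where the adjusted p was under 0.05. Called genes lie to the right in both HFSC panels, led by Hoxc13, Hoxd4 and Hoxd8 against Thy1hi cells, and the called genes other than Hoxc13 lie to the left for DETCs against Thy1hi cells.

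Between the surface populations the study asked how cells with different Thy1 levels differ. No Hox gene was called between Thy1hi and Thy1- cells by limma, edgeR or DESeq2, where limma called 0.337% of all genes tested. At an unadjusted limma p under 0.05 there was 1 of 23 Hox genes, beside 1242 of all 17204 genes tested. The 23 log2 differences, Thy1hi minus Thy1-, ran from -2.37 to 1.12. The lowest was that of Hoxc13, with 0, 0, 6.50 and 2.91 in Thy1hi and 7.30, 19.7, 15.0 and 6.56 in Thy1- cells. The libraries did not overlap, the difference was -2.37 ± 0.77, and the adjusted p was 0.298. With Thy1hi libraries at 0 this difference also depends on the added count, and it ran from -4.04 to -0.83 over the alternatives. Deviations of libraries of these populations with the same replicate number had correlations of 0.293 to 0.716, and those with different numbers reached 0.514. With the replicate number as a block in a fit of these 8 libraries Hoxc13 was called (-2.37 ± 0.61, adjusted p = 0.0456), where 6.61% of all genes tested were. It was 1 of 23 Hox genes called in that fit. Hair follicle stem cell markers did not pass the test in any of 7 genes, and their sums were 1155 to 1806 in Thy1hi and 2572 to 3142 in Thy1- cells, so that they lay on the same side as Hoxc13. Their part in it was not tested.

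No Hox gene was called between YFP+ and Thy1hi cells by limma, edgeR or DESeq2, where limma called 0.0116% of all genes tested. At an unadjusted limma p under 0.05 there were 0 of 23 Hox genes, beside 1561 of all 17204 genes tested. The log2 differences, YFP+ minus Thy1hi, ran from -0.96 (Hoxa2) to 1.23 (Hoxc13). Hoxc13 had 0, 13.9 and 9.91 in YFP+ cells, a spread as wide as the difference. Hoxd8 had 7.97, 11.6 and 13.9, which overlapped with Thy1hi cells and lay below every HFSC library. With 3 against 4 libraries the smallest exact permutation p is 0.0571, and no permutation test could pass.

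DETCs had the lowest Hox levels. Against HFSCs, 22 of 23 Hox genes were lower in DETCs and none was higher, where 18.5% of all genes tested were lower. The exception was Hoxa9 (-1.08, adjusted p = 0.0991). The median difference was -2.34, against 0.02 over all genes. Hoxd8 had 8.81, 7.12, 6.32, 1.37 and 1.20 in DETCs and differed by -3.84 ± 0.56 (adjusted p = 1.38e-05). Hoxd4 had 1.96, 0, 1.58, 0 and 1.20 (-3.31 ± 0.67, adjusted p = 0.000507). All DETC libraries of both genes were below all HFSC libraries, and Hoxd4 reached the filter only through HFSCs.

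Hoxc6 had 5.87, 12.2, 13.4, 2.74 and 9.61 in DETCs, again below every HFSC library, and differed by -3.11 ± 0.38 (adjusted p = 1.61e-06). Hoxb6 followed with -2.83 ± 0.39 (adjusted p = 8.07e-06) and Hoxb4 with -2.80 ± 0.48 (adjusted p = 0.000108). Hoxc8 differed by -2.68 ± 0.34 (adjusted p = 2.15e-06). The other called genes reported here differed by -2.68 to -1.57. Without the genes that reached the filter only through HFSCs, Hoxd4 and Hoxa2, 20 of 21 were called. With the replicate number as a block, in a fit that drops DETC a and b, Hoxc5 lost its call (adjusted p = 0.0663).

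Against Thy1hi cells, a comparison that uses the same DETC libraries, 14 Hox genes were lower in DETCs, where 16.6% of all genes tested were lower, and 1 was higher, where 19.9% were. Hoxa4 differed by -2.29 ± 0.51 (adjusted p = 0.00134) and Hoxa7, with 141.9, 66.1, 153.4, 41.2 and 126.1 in DETCs, by -1.91 ± 0.33 (adjusted p = 9.03e-05). The libraries of both were separate, with DETCs below. Hoxc4 (-1.74 ± 0.35, adjusted p = 0.000535), Hoxa2 (-1.71 ± 0.57, adjusted p = 0.0225) and Hoxa5 (-1.52 ± 0.44, adjusted p = 0.00988) were also lower. In DETCs Hoxa4 had 0 to 5 reads and Hoxa2 0 to 7, so their differences depend on the added count. Over the alternatives that of Hoxa4 ran from -3.16 to -0.96 and that of Hoxa2 from -2.58 to -0.62.

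Hoxb6, Hoxc5, Hoxb4, Hoxb7, Hoxb2, Hoxc6, Hoxa3 and Hoxc8 had differences of -1.42 to -0.92 on the log2 scale and were called lower, though the libraries of Hoxb4, Hoxc5 and Hoxc8 overlapped. Hoxb3, which was higher in HFSCs, differed by -0.19 between DETCs and Thy1hi cells and was not called, and neither was Hoxd8 (-0.38) or Hoxd4 (0.06), which was at 0 to 2.44 in both populations. The gene called higher was Hoxc13 (1.93 ± 0.73, adjusted p = 0.0431), with 4.89, 15.2, 9.49, 4.12 and 9.61 in DETCs and overlapping libraries. It was called under 7 of 19 alternatives, and its call was lost without DETC replicates 2, 3 or b or Thy1hi replicates 1 or 2.

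Leaving out a library gave 11 to 14 calls, and leaving out any of the 9 libraries ended a call of Hoxa2, Hoxb4, Hoxc5, Hoxc6, Hoxc8 or Hoxc13. Hoxa3, Hoxa4, Hoxa7, Hoxb2 and Hoxc4 were called under every alternative. Quantile normalization moved the median of all genes to -0.20 for DETCs against Thy1hi cells and gave 15 lower and none higher among the 23.

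The Hox levels of DETCs moved with basal keratinocyte markers. As a percentage of the Thy1hi mean, the summed Hox counts in DETC replicates 1, 2, 3, a and b were 49.0, 43.8, 53.2, 17.4 and 43.9, and the summed basal markers were 25.8, 18.6, 24.4, 5.42 and 21.5. DETC a was lowest in both. All 7 basal markers were measured in DETCs, none at 0, and Krt5 ran from 3248 to 16494. Fibroblast markers summed to 4040 to 8581 in DETCs, with Vim giving 3641 to 7821 of the sum. Col1a1 ran from 77.3 to 469.8 there, Col3a1 from 99.8 to 388.5 and Lum from 0 to 4.12. Of the 7 tested fibroblast markers 3, Vim, Col3a1 and Pdgfra, were higher in DETCs than in HFSCs, where 21.2% of all genes tested were. Against Thy1hi cells 1 of 7 was higher, where 19.9% of all genes tested were, and the median log2 difference was -0.21. The Hox percentages were higher than the basal percentages in all 5 DETC libraries, as in every HFSC, Thy1- and YFP+ library. In Thy1- cells they were 82.0 to 116% for Hox genes and 39.2 to 69.6% for the markers. What share of the Hox reads came from cells other than T cells was not tested.

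**Figure D5:**
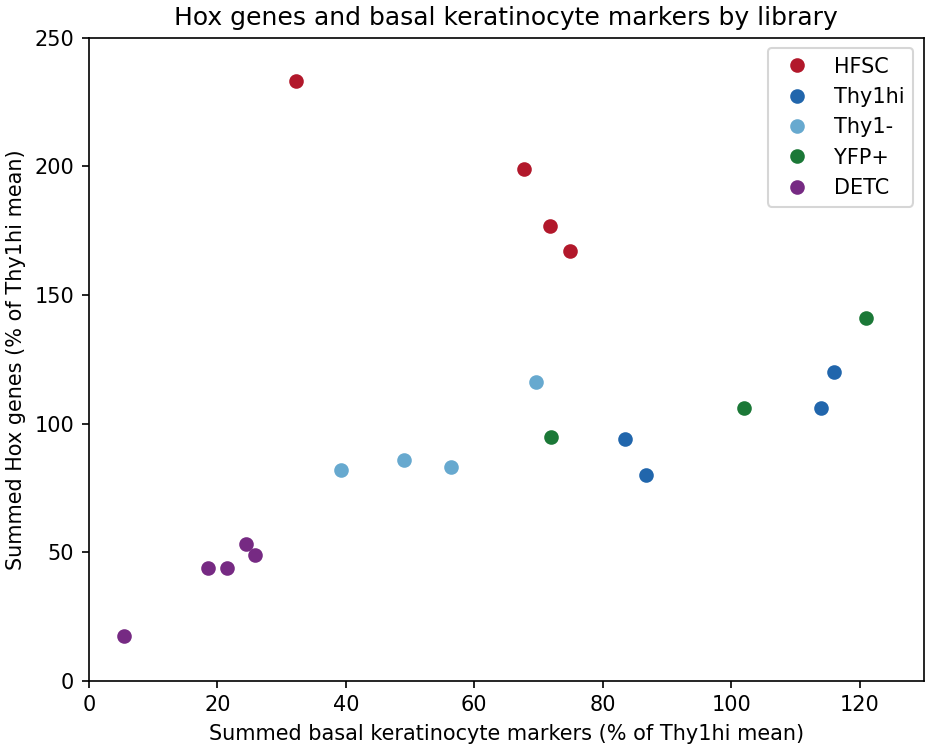
Summed normalized count of all 39 Hox genes against that of 7 basal keratinocyte markers in each library, both as a percentage of the Thy1hi mean. DETC libraries lie between 5.42 and 25.8% for the markers and 17.4 and 53.2% for Hox genes, and HFSC libraries lie between 32.2 and 74.9% for the markers and 167 and 233% for Hox genes.

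Hox proteins bind DNA with cofactors of the Pbx, Meis and Pknox families, and all 9 cofactor genes listed were tested. Against Thy1hi cells 3 of 9 were higher in HFSCs (6.86% of all genes tested were) and none was lower, with a median log2 difference of 0.57, against -0.02 over all genes tested. Pknox2 had 86.9 to 116.3 in HFSCs and 13.6 to 26.3 in Thy1hi cells (log2 difference 2.47, adjusted p = 2.83e-05), Pbx3 117.6 to 272.6 and 40.8 to 56.6 (1.67, adjusted p = 0.000835), and Meis1 211.2 to 357.3 and 72.4 to 156.2 (1.36, adjusted p = 0.00427). These 3 sets of libraries do not overlap. Against Thy1- cells 2 of 9 were higher, Pknox2 and Pbx3, where 3.52% of all genes tested were. Against HFSCs 4 of 9 were lower and 1 was higher in DETCs, where 18.5% and 21.2% of all genes tested were, the higher gene being Pbx4 (10.9 to 16.2 in HFSCs and 49.8 to 144.1 in DETCs).

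Polycomb complexes hold Hox genes silent, and Trithorax proteins keep them active. Of 23 Polycomb genes, 6 were higher and 4 lower in HFSCs than in Thy1hi cells, where 6.86% and 6.51% of all genes tested were, with a median of 0.06. The lowest adjusted p values were those of Cbx7 (1.43, adjusted p = 0.00191), Cbx8 (1.52, adjusted p = 0.00216) and Jarid2 (-1.16, adjusted p = 0.00233). Of 13 Trithorax and related genes, 0 were higher and 3 lower, Dot1l, Kdm6b and Hcfc1, with a median of -0.34. Between Thy1hi and Thy1- cells none of the 9 cofactors, 23 Polycomb or 13 Trithorax genes was called. In DETCs against HFSCs 13 Polycomb genes were higher and 5 lower, and 7 Trithorax genes were higher and none lower, beside 21.2% higher and 18.5% lower over all genes tested.

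Of 25 noncoding and flanking genes of the clusters, 23 were in the table and 8 were tested. Of these 3 were higher and none was lower in HFSCs than in Thy1hi cells, where 6.86% of all genes tested were higher, with a median of 0.24. Hoxaas2 and Hoxd3os1 reached the filter only with the help of the HFSC libraries in which they are high, so their calls are no support for a difference. Hoxaas2, an antisense gene in Hoxa, had 12.8 to 34.8 in HFSCs and 3.88 to 9.22 in Thy1hi cells (1.66, adjusted p = 0.0298), and Hoxd3os1, in Hoxd, had 9.62 to 18.5 and 0 to 2.21 (3.06, adjusted p = 0.00433). Calcoco1, which flanks Hoxc beyond Hoxc13, had 327.8 to 592.3 and 154.6 to 334.7 (0.93, adjusted p = 0.0117). The genes that flank the other clusters were not called, with differences of 0.11 for Skap2 beside Hoxa, -0.48 for Skap1 beside Hoxb and 0.37 for Mtx2 beside Hoxd. Hotair, the noncoding RNA between Hoxc11 and Hoxc12, was at 0 in all libraries except those of Thy1- cells, where it reached 4.86. Of the 6 ParaHox and Cdx genes, relatives of the Hox genes outside the clusters, none was tested, and the highest value of any was 6.94, that of Cdx2 in YFP+ cells.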

How the data were processed

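RNA of 20 libraries of 5 sorted populations was aligned to mm10 with STAR and counted per gene with featureCounts by the authors, whose strand setting is not given in the sources used here. The deposited values are a signal in normalized counts, that is gene counts the authors divided by DESeq2 size factors (0.729 to 1.427). Library kits, and the 2 batches that the series description mentions, are not assigned to samples in the sources used here. Whole reads were recovered from the steps of the values (100% of values whole, tolerance 0.1), giving 7781257 to 12982393 reads per library. In 1 column the values of 3212 genes stood in other rows than in the rest of the table and were put back first, which moved 0 Hox genes.

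The 17204 genes that reached 10 normalized counts in 3 or more libraries were tested on log2(value + 1) with limma 3.58.1 in R 4.3.3 (1 mean per population, all 20 libraries, trended variance), with Benjamini-Hochberg adjustment over all genes and a threshold of 0.05. Single genes were also compared with two-sided exact permutation tests (scipy 1.17.1). Alternatives were other pseudocounts (0.1, 10), testing every gene or those averaging 50 or more, scaling to the same total without Rn45s, quantile normalization, only the 2 populations compared, the deposited row order, a replicate block, leaving out each library, and edgeR 4.0.16 and DESeq2 1.42.0 on the recovered reads. The replicate block follows the replicate numbers. Deviations of same-numbered Thy1hi and Thy1- libraries had correlations of 0.293 to 0.716 (4 pairs), and differently numbered pairs -0.651 to 0.514. For HFSC and DETC libraries, same-numbered pairs (0.17 to 0.333, 3 pairs) lay within the range of the others (-0.318 to 0.371). Same-numbered pairs ran from -0.232 to 0.162 for HFSCs with Thy1hi and from -0.225 to 0.165 for HFSCs with Thy1- cells. For DETCs with Thy1hi cells they ran from -0.118 to 0.147. Whether the numbers mark true pairs was not tested. The limma fit was tested on simulated data.

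By the rule for named genes, up to 6 called members per comparison with the largest log2 difference and separate libraries were given with full statistics, other called members by name or range, uncalled members by count and range or where neighbours or paralogues were compared, and up to 3 called genes of each other list by lowest adjusted p. Pbx4, Hotair, Cdx2, Skap1, Skap2, Mtx2 and the marker genes given singly were named outside this rule, after their values were seen. Some items are counted but not reported singly here. The members and the lists of cofactors, Polycomb, Trithorax, noncoding and flanking, ParaHox and marker genes were chosen with earlier results of these data known.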

Additional observations from a re-analysis of the deposited data

Results flagged for a closer look

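In groups of 4 or 5 libraries, 112 sets of values were tested for a library far from the rest, and 8 were flagged, where chance flags about 1 in 20. Hoxa2 was at 14.2 in Thy1- replicate 3, against 2.43 to 3.47 in the other libraries of that population. Hoxa3 was at 129.6 in HFSC replicate 4, against 68.4 to 78.5. Hoxa6 was at 35.9 in Thy1hi replicate 4, against 9.94 to 13.0. Hoxb5 was at 14.24 in DETC replicate 2, against 4.74 to 6.0. Hoxc5 was at 5.27 in Thy1hi replicate 2, against 21.1 to 23.2. The summed Hoxb count was 317.2 in Thy1- replicate 4, against 242.9 to 252.2, and the sum of all Hox genes in the same library was 1027, against 728.9 to 763.6. The sum of all Hox genes was 155.0 in DETC a, against 389.5 to 472.7.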

How the results depend on the processing

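Counts of called Hox genes moved by over 1.5 times under these settings, and their cause was not tested unless stated. A mean of at least 50, which leaves 4 Hox genes to test, gave 2 calls for HFSCs against Thy1hi cells, 2 against Thy1- cells, 4 for DETCs against Thy1hi cells and 4 against HFSCs. For HFSCs against Thy1- cells, a pseudocount of 10 gave 11, no filter 4, DESeq2 11 and the replicate block 12, and leaving out each library gave 2 to 8. For DETCs against Thy1hi cells, no filter gave 9 and the replicate block, which drops DETC a and b, gave 7. With the replicate block, Thy1hi against Thy1- cells gave 1 call (Hoxc13, adjusted p = 0.0456 in a fit of these populations alone, 0.0965 with all populations). Hoxa7 between HFSCs and Thy1hi cells ran from -0.034 without Thy1hi replicate 2 (adjusted p = 0.972) to 0.25 without Thy1hi replicate 4. For HFSCs against Thy1hi cells edgeR gave 12 calls and DESeq2 13. Quantile normalization moved the median of all genes to -0.15 for DETCs against HFSCs. Of the values for single genes, 580 kept their direction and side of the threshold under settings other than leaving out a library, 55 lost their call and 19 gained one, and when leaving out a library 476 kept them, 68 lost and 5 gained a call. Low reads limit Hoxd4 and the 16 untested genes, and other genes in some populations. Among these, Hoxc13 had 0 to 8 reads in Thy1hi cells, and in DETCs Hoxa2 had 0 to 7 and Hoxa4 0 to 5.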
